A study of Macaca mulatta with 6 samples.

Results

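The insulin-like growth factor (IGF) system was followed through the day in the adrenal gland of the rhesus macaque. Its members were the probe sets whose platform annotation names IGF1, IGF2, IGF1R, IGF2R, IGFBP2, IGFBP3, IGFBP4, IGFBP5 or IGFBP6, 9 of the 13119 genes and 22 of the 22283 probe sets on the array. The 3 IGF2 probe sets also name INS-IGF2, a read-through transcript that joins the insulin gene to IGF2, and cannot tell it from IGF2 itself. A probe set is a group of short probes whose signals are combined into 1 value. IGFBP5 had 5 of the 22, IGF1 had 4, IGF2 and IGF1R had 3 each, IGF2R and IGFBP3 had 2 each, and IGFBP2, IGFBP4 and IGFBP6 had 1 each.

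The series is about circadian gene expression in this gland. At each of 6 clock times, 3 AM, 7 AM, 11 AM, 3 PM, 7 PM and 11 PM, the left adrenal of a single animal was collected, without replication. All 6 animals were ovariectomized females kept for 3 months in individual cages with equal spans of light and dark, and all had been fasted before necropsy. The animal taken at 3 AM and that taken at 7 AM were 12 years old, that at 11 AM was 10 years and 37 days, that at 3 PM 8 years and 106 days, that at 7 PM 7 years and 82 days, and that at 11 PM 8 years and 70 days. When the lights came on is not stated in the sources used here. Removal of the ovaries, the fast and the light schedule were common to all groups, so the series holds no group without them. The probes were designed on human sequence, and a macaque transcript that differs from it can read low, so fold changes and differences are taken only within a probe set. A probe set called the brightest of its gene is so in signal, which is no measure of transcript amount.

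IGF1 and IGF2 are small secreted peptides related to insulin that promote cell growth and survival. Both signal through IGF1R, a receptor tyrosine kinase, whereas IGF2R, also known as the cation-independent mannose 6-phosphate receptor, carries IGF2 to lysosomes for breakdown. The IGF-binding proteins (IGFBPs) hold the peptides in blood and tissue and control how much reaches the receptors. In the adrenal, IGFs enhance the response of cultured cortical cells to ACTH, and IGF2 is known for its abundance in the fetal gland and in many adrenocortical carcinomas.

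The arrays had been scaled to a common level, with trimmed means from 325.04 to 325.09. Spiked-in hybridisation control transcripts averaged 350 on the 3 AM array and 465 on the 3 PM array (geometric means), and 688 to 769 elsewhere. The 3′ to 5′ signal ratio of GAPDH, a measure of RNA integrity, ran from 0.721 to 1.16. That of ACTB ran from 0.61 to 0.819, and the 3 PM array was highest for GAPDH but lowest for ACTB. Of 10 markers of the steroid-producing cortex 9 were measured above the level filter, and of 11 markers of chromaffin cells, the adrenaline-making cells of the medulla, 9 were. No marker was listed at 0, since the lowest deposited value is 0.1. The summed intensity of the chromaffin markers was 15920 at 3 AM, 41280 at 7 AM, 25660 at 11 AM, 30580 at 3 PM, 25060 at 7 PM and 22960 at 11 PM. That of the cortical markers was lowest at 3 AM, at 59580, and highest at 7 PM, at 93520. Of 8 smooth muscle and pericyte markers 7 were measured above the filter, and their mean log2 deviation was highest at 7 PM, at 0.59, and lowest at 11 PM, at -0.78. Of the 6 adipocyte markers 3 were, with sums from 1459 at 7 AM to 3912 at 3 AM. For these whole-gland samples, fewer cells of a type and less RNA per cell cannot be told apart.

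A curve with a period of 24 h was fitted to log2(intensity + 1) of each probe set over the 6 arrays. Its size is given as the log2 difference between fitted peak and trough, with the standard error (SE) of the fit. Of the 22 probe sets 18 reached the level filter, a mean log2 value of 7.30 (the median of the whole array), and were tested. The other 4 were IGF1 209542_x_at, IGF1R 208441_at and 203628_at, and IGF2R 201392_s_at, and only their values are given.

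No IGF-system transcript had a 24-h pattern that passed the test across the array, and the highest values fell at different hours even for probe sets of 1 gene. By limma's moderated F test 0 of the 18 tested probe sets passed adjustment over all 11108 probe sets, as did 0 of all 11108 (0% called). The lowest adjusted p among the 18 was 0.866, and the ordinary F test also called 0 of all probe sets. At an unadjusted p under 0.05, 1 of the 18 passed, IGFBP5 203425_s_at, against 5.44% of all probe sets tested. The looser rule, which also asks that peak exceed trough by 1.5 times, called the same share, 5.44%. The median peak-to-trough difference of the 18 was 0.45 on the log2 scale, beside 0.44 over all probe sets tested, and their median SE was 0.34, beside 0.32. A difference of 0.45 is little above an SE of 0.34, so a rhythm of that size in any one member could be missed with 6 arrays.

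**Figure D1:**
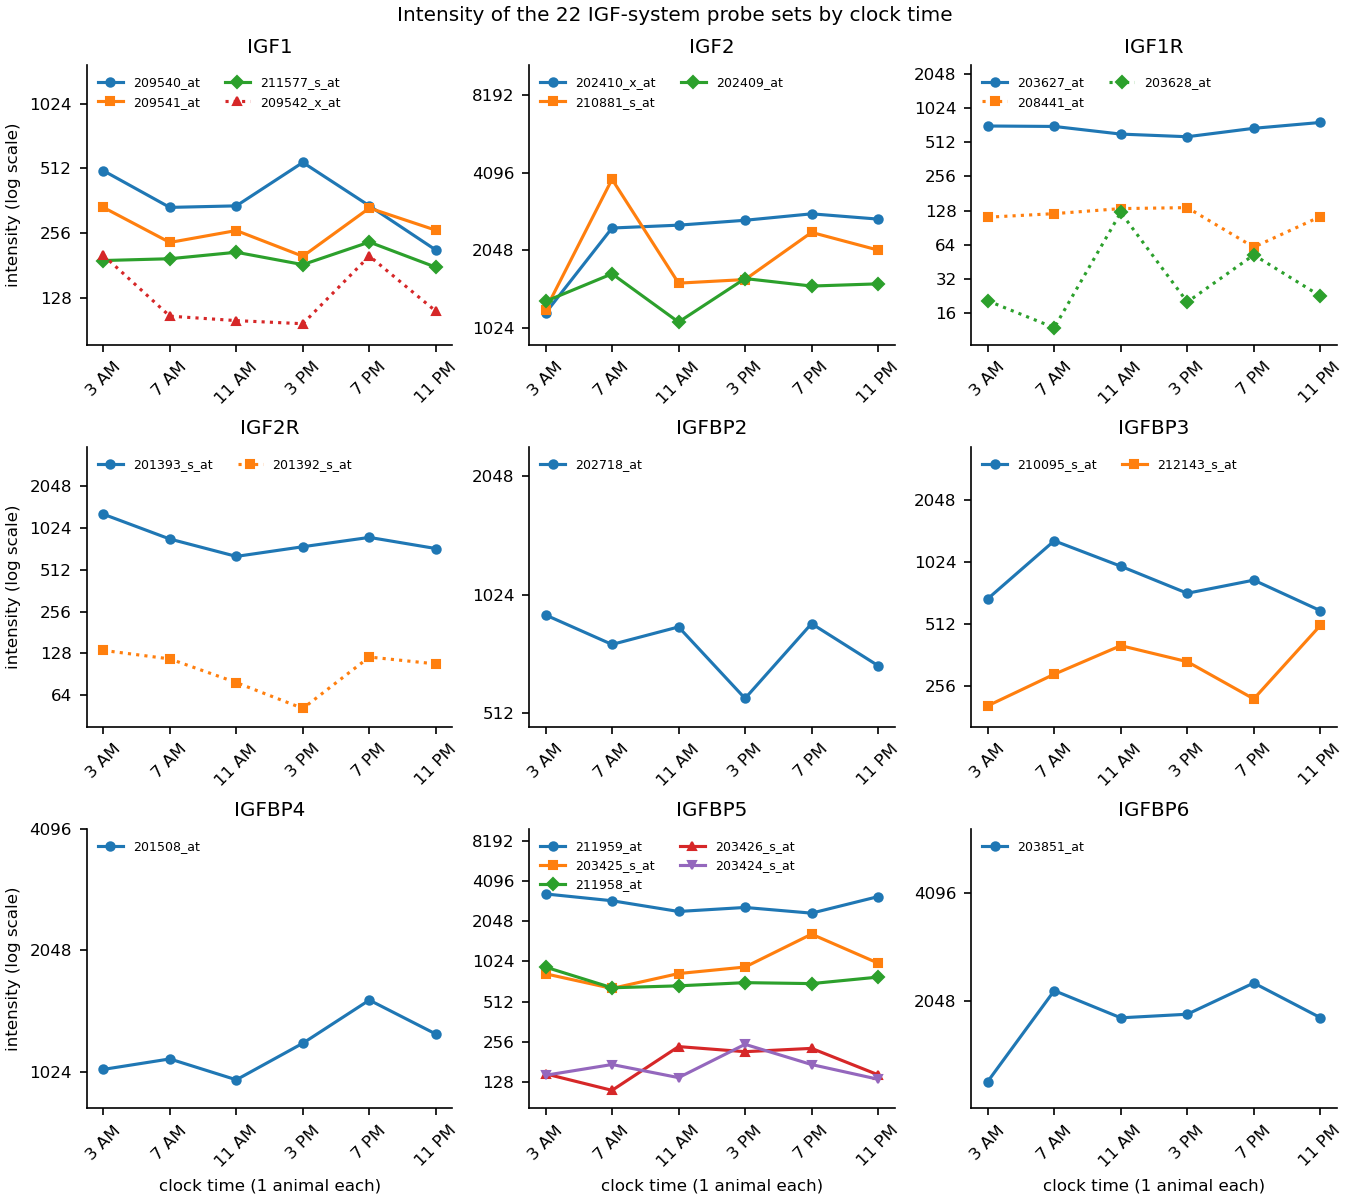
Intensity on a log scale of each of the 22 probe sets at the 6 clock times, 1 panel per gene, with dotted lines for the 4 probe sets below the level filter; each point is 1 animal. Probe sets of the same gene often take different courses, as for IGFBP5, where 203425_s_at is highest at 7 PM (1637) while 211959_at is lowest there (2352).

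The ligand IGF2 was above the level filter on all 3 of its probe sets, and 2 of the 3 were lowest at 3 AM. On 202410_x_at the intensity was 1169 at 3 AM, 2501 at 7 AM, 2566 at 11 AM, 2681 at 3 PM, 2839.7 at 7 PM and 2709 at 11 PM. The 3 AM animal thus stood apart, while the other 5 lay within a narrow range. On 210881_s_at the values were 1205 at 3 AM, 3868 at 7 AM, 1528 at 11 AM, 1578 at 3 PM, 2405 at 7 PM and 2053 at 11 PM. Here too 3 AM was lowest, but 7 AM was far above the rest. On 202409_at the values were 1298 at 3 AM, 1661 at 7 AM, 1079 at 11 AM, 1592 at 3 PM, 1489 at 7 PM and 1518 at 11 PM, so that 11 AM was lowest and 7 AM again highest.

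The fitted curves of IGF2 differed as the values did. Probe set 202410_x_at had a peak-to-trough difference of 0.85 ± 0.42 (SE, log2) with its peak at 15.7 h (adjusted p = 0.876, limma). Without the 3 AM array that difference was 0.17, so its size rested on this 1 animal. The other 2 IGF2 probe sets had differences of 0.19 ± 0.61 and 0.19 ± 0.33, with peaks at 6.55 h and 21.4 h. On 210881_s_at the difference was 1.12 without the 3 AM array and 1.005 without the 7 AM array.

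The low signal of 2 IGF2 probe sets at 3 AM came with low chromaffin markers on the same array. The third, 202409_at, deviated by only -0.13 there. Cortical markers were low at 3 AM too, with the lowest sum, 59580, and 1 of the 9 measured above its own mean. Their mean log2 deviation was -0.28 at 3 AM and -0.34 at 11 AM. TH, which carries out the limiting step in making catecholamines, read 1903 at 3 AM, 8245 at 7 AM, 4775 at 11 AM, 5047 at 3 PM, 3748.5 at 7 PM and 2859.6 at 11 PM. It shared its lowest and its highest array with IGF2 210881_s_at. Of the 9 chromaffin markers measured, the mean log2 deviation from their own means was -0.71 at 3 AM and 0.69 at 7 AM, where IGF2 210881_s_at deviated by -0.70 and 0.99. On the other 4 arrays the signs differed: -0.35 at 11 AM, -0.31 at 3 PM, 0.30 at 7 PM and 0.07 at 11 PM for that probe set, and 0.14, 0.24, -0.001 and -0.37 for the markers. Probe sets whose name ends in _x_at can match more than 1 sequence, and 24.1% of the 1464 tested were lowest at 3 AM, against 16.4% of the other 9644. The 3 AM array also had the lowest hybridisation controls. The part of each of these in the low value was not tested.

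**Figure D2:**
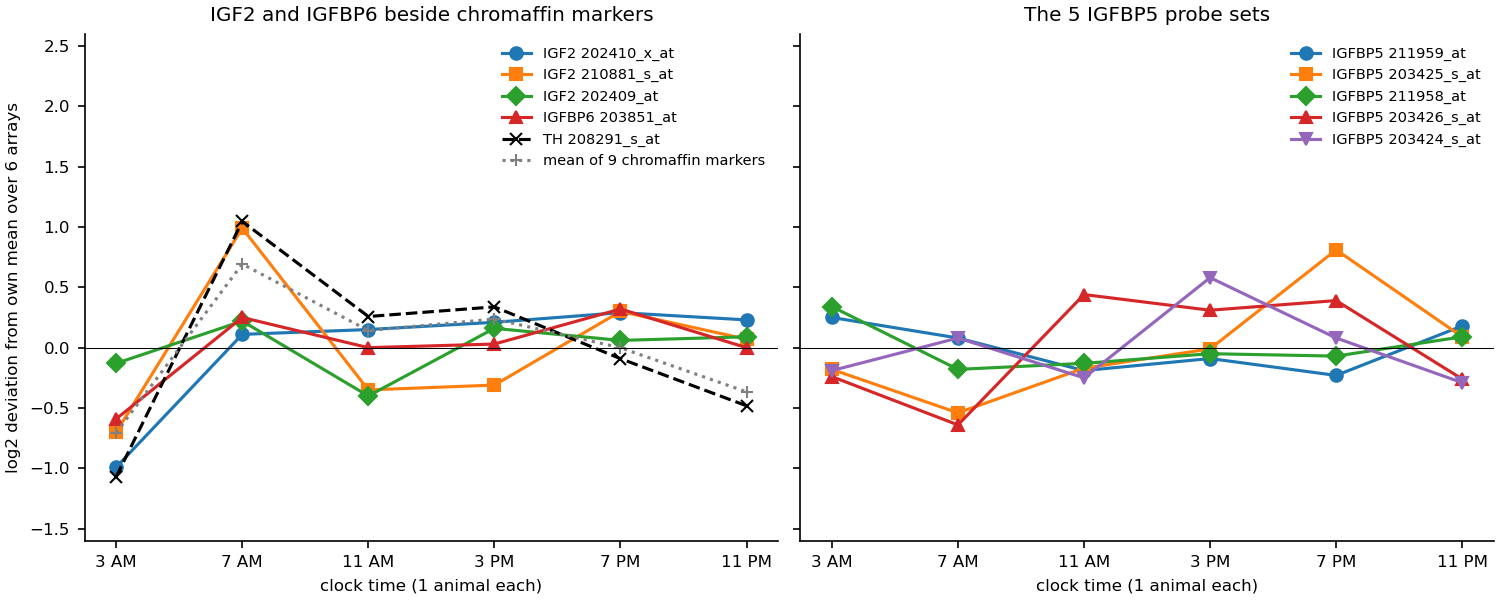
Log2 deviation of each probe set from its own mean over the 6 arrays, by clock time, 1 animal per point. On the left, 2 of 3 IGF2 probe sets, IGFBP6, TH and the mean of 9 chromaffin markers lie lowest at 3 AM; on the right, IGFBP5 203425_s_at reaches 0.81 at 7 PM where 211959_at lies at -0.23.

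IGF1, the ligand that mediates much of growth hormone action, took 2 courses. On 209540_at the intensity was 499.6 at 3 AM, 337 at 7 AM, 342.5 at 11 AM, 545.5 at 3 PM, 343 at 7 PM and 213 at 11 PM, highest at 3 PM. On 209541_at it was 337 at 3 AM, 231 at 7 AM, 263 at 11 AM, 199.5 at 3 PM, 334.5 at 7 PM and 264 at 11 PM, lowest at 3 PM. Probe set 209542_x_at, below the level filter, read 202 at 3 AM and 200 at 7 PM, and 96.8 to 111 at the other 4 times. It shared with 209541_at its peaks at 3 AM and 7 PM and its lowest value at 3 PM. The probe set 211577_s_at ran only from 177 to 232.

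The peak-to-trough difference was 0.50 ± 0.49 (SE, log2) for 209540_at, 0.45 ± 0.34 for 209541_at and 0.12 ± 0.28 for 211577_s_at, with peaks at 11.7 h, 0.112 h and 15.5 h. None of the 3 passed, with adjusted p of 0.919 or more by limma. A profile with maxima at 3 AM and 7 PM is not one that a single 24-h cosine can follow. Without the 3 AM array the difference of 209540_at was 1.21, and without 11 PM it was 0.23.

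The receptor IGF1R changed little on its brightest probe set. On 203627_at the intensity was 715 at 3 AM, 709 at 7 AM, 607 at 11 AM, 575 at 3 PM, 682.5 at 7 PM and 769 at 11 PM. These values followed a smooth course, low around the afternoon and high around midnight, and the curve took up 0.870 of their variance (R2). The difference was 0.38 ± 0.26 (SE, log2), a peak 1.30 times the trough, with its peak at 1.28 h. By limma's moderated test the unadjusted p was 0.388, and by the ordinary F test, which uses only the spread of this probe set, 0.0471 (adjusted p = 0.862). The exact order test, which sets R2 against that of all 60 ways to place the arrays round the clock, gave p = 0.0667. The other 2 probe sets lay below the filter and did not show this course, with 60.8 to 136 on 208441_at, lowest at 7 PM, and 11.8 to 123 on 203628_at, highest at 11 AM.

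IGF2R was highest at 3 AM on both of its probe sets. On 201393_s_at the intensity was 1291 at 3 AM, 855 at 7 AM, 640.3 at 11 AM, 752 at 3 PM, 878 at 7 PM and 729.6 at 11 PM. On 201392_s_at, below the filter, it was 134 at 3 AM, 117 at 7 AM, 78.7 at 11 AM, 51.2 at 3 PM, 120.3 at 7 PM and 107 at 11 PM. The array where the receptor read highest was thus the one where 2 IGF2 probe sets read lowest. The fitted difference of 201393_s_at was 0.58 ± 0.36 (SE, log2) with its peak at 2.14 h (adjusted p = 0.892, limma). It was 0.17 without the 3 AM array and 1.02 without 11 PM.

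Among the binding proteins, IGFBP5 gave the 1 probe set past the unadjusted threshold. IGFBP5 binds IGFs in the extracellular matrix as well as in blood. On 203425_s_at the intensity was 826.5 at 3 AM, 642 at 7 AM, 830 at 11 AM, 929 at 3 PM, 1637 at 7 PM and 993 at 11 PM. The 7 PM animal stood above the rest and the 7 AM animal was lowest. The fitted peak, at 19.2 h, was 2.06 times the trough, a log2 difference of 1.04 ± 0.31 (SE), with unadjusted p = 0.0339 and adjusted p = 0.866 by limma. The exact order test gave p = 0.0333, where 0.0167 is the smallest possible, and 0.733 after adjustment over the 22 probe sets. Without the 7 PM array the difference was 0.66 (unadjusted p = 0.275), and the threshold was also missed without the 3 AM, 7 AM or 11 AM array.

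The other 4 probe sets of IGFBP5 took other courses. The brightest, 211959_at, read 3276 at 3 AM, 2913 at 7 AM, 2421 at 11 AM, 2595 at 3 PM, 2352 at 7 PM and 3127.5 at 11 PM, with its peak at 2.70 h. Probe set 211958_at was also highest at 3 AM, running from 649.5 at 7 AM to 928 at 3 AM, with its peak at 0.860 h. Probe set 203426_s_at was lowest at 7 AM, at 111, as 203425_s_at was, and highest at 11 AM, at 236. It had a difference of 0.96 ± 0.34 (SE, log2) with its peak at 15.8 h (unadjusted p = 0.0637, adjusted p = 0.866, limma). Probe set 203424_s_at was highest at 3 PM, at 245, and 134 to 173 at the other times. Fitted peaks of this gene thus lay anywhere from 14.8 h through the evening to 2.70 h, and whether the probe sets differ was not tested.

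IGFBP3, the main carrier of IGFs in blood, gave opposite readings at 11 PM. On 210095_s_at the intensity was 676 at 3 AM, 1292 at 7 AM, 972 at 11 AM, 719 at 3 PM, 833 at 7 PM and 592 at 11 PM. On 212143_s_at it was 205 at 3 AM, 291 at 7 AM, 401 at 11 AM, 335 at 3 PM, 221 at 7 PM and 502 at 11 PM. The 11 PM animal was lowest on the first and highest on the second. Their peak-to-trough differences were 0.78 ± 0.36 and 0.24 ± 0.52 (SE, log2), with peaks at 9.42 h and 14.3 h. On 212143_s_at the difference was 1.19 without the 11 PM array, with unadjusted p = 0.0392 by limma.

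IGFBP4, which restrains IGFs until it is cleaved, was highest in the evening. Its intensity was 1039 at 3 AM, 1103 at 7 AM, 979 at 11 AM, 1206 at 3 PM, 1543 at 7 PM and 1271 at 11 PM. The 3 animals taken from 3 PM to 11 PM all lay above those taken from 3 AM to 11 AM. This split was picked after the values were seen, and its share over all probe sets was not counted. It also parts the 3 youngest animals from the 3 oldest. The fitted difference was 0.53 ± 0.28 (SE, log2), a peak 1.44 times the trough at 19.7 h, and did not pass (unadjusted p = 0.224, adjusted p = 0.882, limma). 

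IGFBP2 read 909 at 3 AM, 766 at 7 AM, 848 at 11 AM, 559 at 3 PM, 864 at 7 PM and 676.5 at 11 PM, with the 3 PM animal lowest. Its difference of 0.31 ± 0.34 (SE, log2) was 0.12 without the 3 PM array. IGFBP6, which prefers IGF2 over IGF1, read 1223 at 3 AM, 2188 at 7 AM, 1838.5 at 11 AM, 1881 at 3 PM, 2297 at 7 PM and 1841 at 11 PM. The 3 AM animal was lowest, as on 2 of the 3 IGF2 probe sets, and the other 5 lay close together. The difference of IGFBP6 was 0.44 ± 0.36 (SE, log2), and 0.07 without the 3 AM array.

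**Figure D3:**
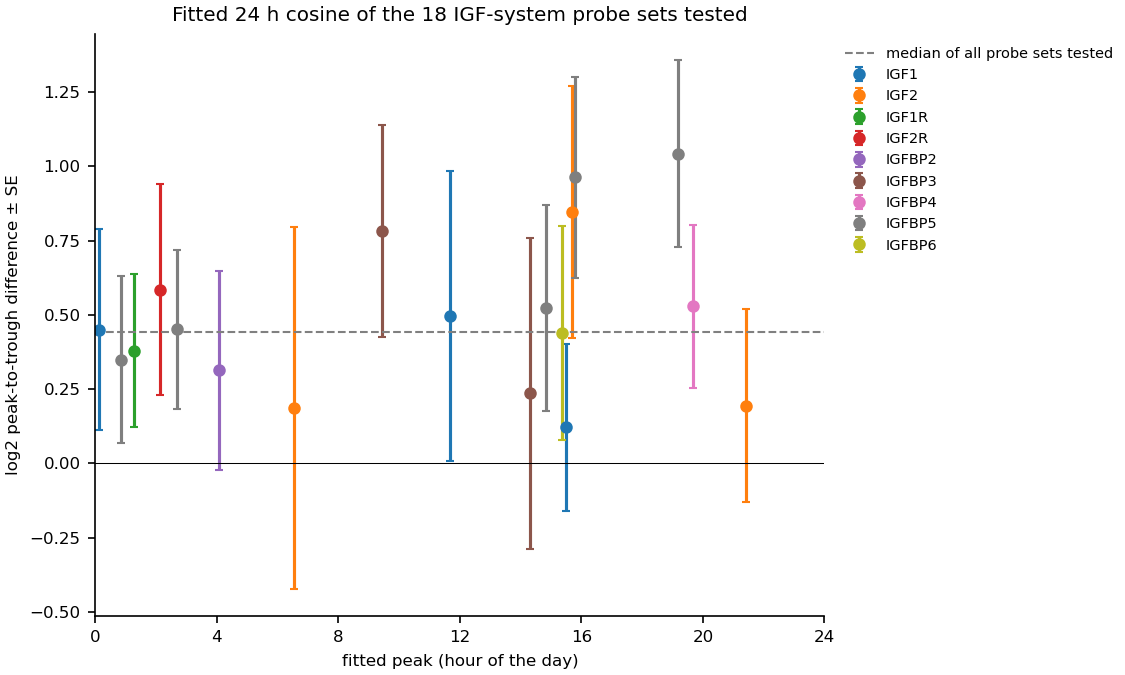
Fitted peak hour against log2 peak-to-trough difference with its SE for the 18 tested probe sets, coloured by gene; the dashed line is the median of all 11108 probe sets tested, 0.44. Peaks spread over the day, and IGFBP5 203425_s_at has the largest difference, 1.04, of the 18.

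Which array was extreme differed between members. Of the 18 tested, 5 were highest at 3 AM and 5 at 7 PM, against 17.8% and 17.3% of all probe sets tested. The lowest array was 3 AM for 4 of them and 11 PM for 4, against 17.4% and 17.1% of all. Leaving out 1 array moved most fitted sizes. The range without 1 array ran from 0.07 to 0.83 for IGFBP6 and from 0.41 to 0.63 for IGFBP5 211959_at.

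**Figure D4:**
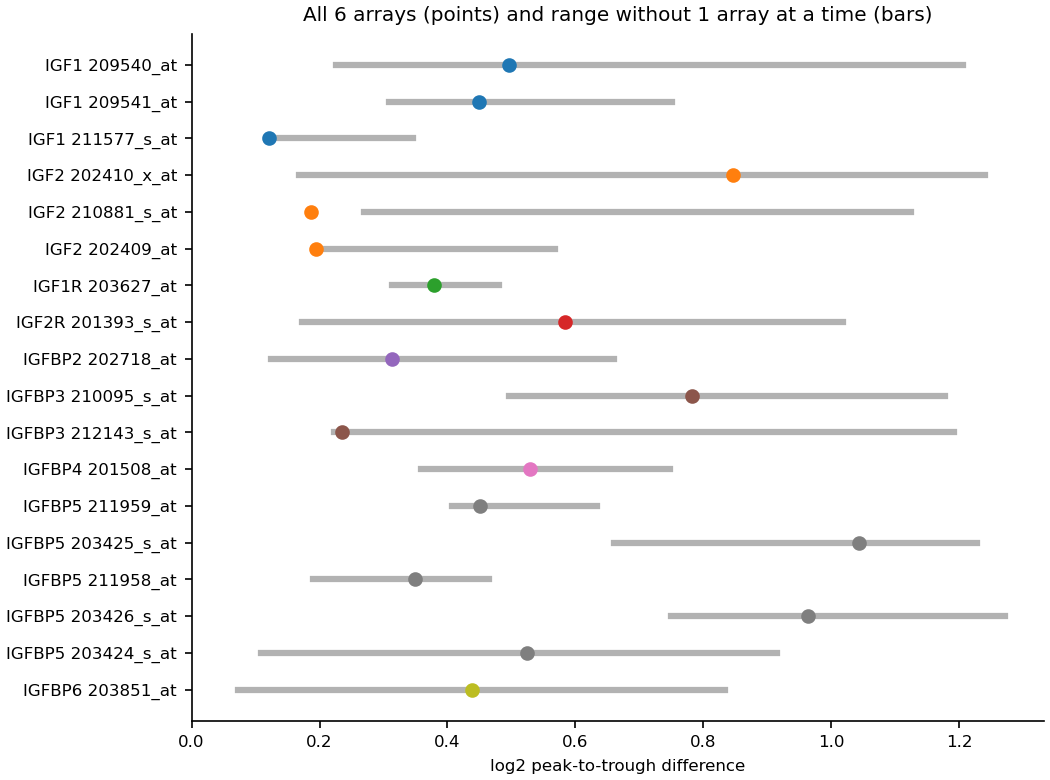
Log2 peak-to-trough difference of the 18 tested probe sets with all 6 arrays (points) and its range when 1 array at a time is left out (bars). For IGF2 202410_x_at the bar reaches from 0.17 to 1.24 around a value of 0.85.

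No member passed a contrast of day against night, which assumes no curve. Here 7 AM, 11 AM and 3 PM were set against 7 PM, 11 PM and 3 AM, 3 arrays against 3. By limma 0 of the 18 passed adjustment (0% called of all 11108), the lowest adjusted p being 0.909, and 0 passed an unadjusted p under 0.05, against 5.53% of all (2.93% higher and 2.59% lower by day). Over all probe sets 53.1% of the 614 called were higher by day. With arrays centred on the median 612 were called, and 42.8% of them were higher by day. Of the 18, 8 were higher by day and 10 lower, with a median difference of -0.02 on the log2 scale beside -0.003 over all probe sets. An exact test of 3 against 3 cannot go below 0.1.

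The day and night values failed to overlap on 1 of the 18 probe sets, IGF1 209541_at, against 10.7% of all probe sets tested (5.19% with the day lower). Its 3 day values, 199.5 to 263, lay just below its night values, 264 to 337. The difference was -0.43 ± 0.20 (SE, log2; unadjusted p = 0.0667, adjusted p = 0.909, limma). With the day taken as 11 AM to 7 PM the difference was -0.08. Probe set 209542_x_at, which had no place in this test, also had all its day values below its night values. IGF1R 208441_at, likewise below the filter, had all its day values above its night values. The largest difference upward was that of IGFBP3 210095_s_at, 0.48 ± 0.26 (adjusted p = 0.916, limma), and the largest downward that of IGFBP5 203425_s_at, -0.48 ± 0.28 (adjusted p = 0.928, limma). With the day taken as 11 AM to 7 PM these differences were 0.06 and 0.42, so that the second turned its direction.

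**Figure D5:**
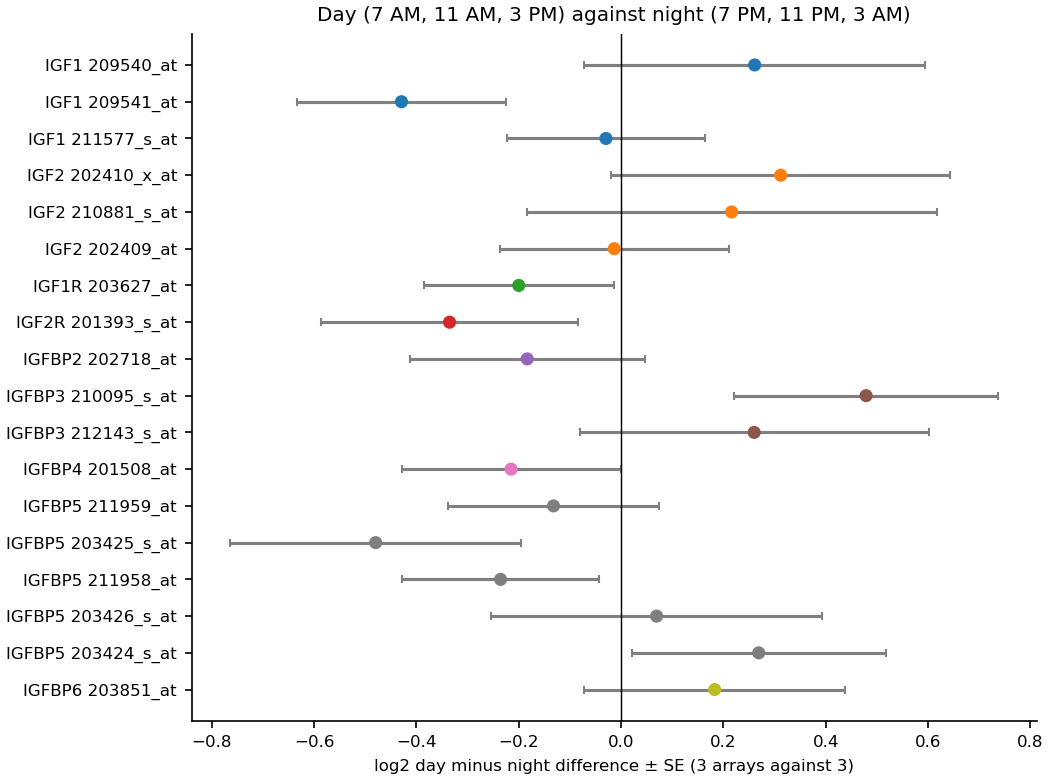
Log2 day minus night difference with its SE for the 18 tested probe sets, 3 arrays against 3, coloured by gene; values right of 0 are higher by day. The differences run from -0.48 to 0.48, and probe sets of IGF1, IGF2 and IGFBP5 lie on both sides of 0.

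Age moved with clock time in this design. A 24-h curve fitted to age peaked at 6.23 h and had its trough at 18.2 h, with an R2 of 0.947. IGFBP5 203425_s_at was lower in the older animals, with Pearson's r = -0.83 (exact permutation p = 0.00833) and Spearman's rho = -0.99 (exact permutation p = 0.00556) over the 6 animals. Adjusted over the 22 probe sets these exact p were 0.0917 and 0.0611, so neither passed. As 2 of the 6 animals were of equal age, 0.00556 is the smallest exact p that rho can reach. With only 2 probe sets at that value, adjustment over the 22 could not be passed. For IGFBP5 203425_s_at r was again -0.83 without the 2 animals farthest from the median age. IGF2 202410_x_at had r = -0.66 (exact permutation p = 0.00833, adjusted 0.0917) and rho = -0.99 (exact permutation p = 0.00556, adjusted 0.0611), and r was -0.97 without those 2 animals. The other IGF2 probe sets had r = 0.02 (210881_s_at) and -0.2 (202409_at), and -0.82 and -0.86 without those 2 animals. The other IGFBP5 probe sets had r = 0.54 (211959_at), 0.22 (211958_at), -0.63 (203426_s_at) and -0.28 (203424_s_at). Without those 2 animals these ran from -0.41 to 0.22. IGFBP4 had r = -0.79 (exact permutation p = 0.0583, adjusted 0.428) and rho = -0.81 (exact permutation p = 0.0722). With age as a covariate the peak-to-trough difference of IGFBP5 203425_s_at was 1.36 ± 1.40 (SE, log2; unadjusted p = 0.511, limma). Age and clock time cannot be told apart for these members.

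Genes that surround the IGFs in the pathway were taken from lists, each gene represented by its brightest probe set that names it alone. Of 37 adaptors and kinases of receptor signalling 25 were tested, and 1 passed the unadjusted threshold in each fit, with 0 past adjustment. That share is near those of all probe sets, 5.44% in the cosine fit and 5.53% in the contrast. The gene was GRB14, an adaptor that binds and restrains the insulin receptor. Its intensity was 1486.5 at 3 AM, 773 at 7 AM, 870.3 at 11 AM, 635 at 3 PM, 2284 at 7 PM and 1489 at 11 PM. All its night values lay above all its day values, as on 5.19% of all probe sets tested (10.7% failed to overlap in either direction). The day minus night difference was -1.19 ± 0.24 (SE, log2; unadjusted p = 0.000875, adjusted p = 0.648, limma), and -0.15 with the day taken as 11 AM to 7 PM (unadjusted p = 0.762). In the same list GRB10 and FOXO3 also failed to overlap, with the day higher. The list's median peak-to-trough difference was 0.48, beside 0.44 over all probe sets.

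Of 15 genes of IGF release, proteolysis and the ternary complex 10 were tested, and 2 passed the unadjusted threshold in the cosine fit (5.44% of all probe sets did), with 0 past adjustment. IGFALS, the subunit that joins IGF and IGFBP3 or IGFBP5 in the circulating complex, read 284 at 3 AM, 209 at 7 AM, 275.5 at 11 AM, 369 at 3 PM, 430.3 at 7 PM and 394 at 11 PM. ADAM12, a metalloprotease that can cleave IGFBP3 and IGFBP5, read 171 at 3 AM, 212 at 7 AM, 221 at 11 AM, 402 at 3 PM, 443 at 7 PM and 300.4 at 11 PM. Both were highest at 7 PM, the array where IGFBP4 and IGFBP5 203425_s_at were highest. On that array 6 of the 7 smooth muscle and pericyte markers lay above their own means. So did all 9 cortical markers measured, 6 of the 7 capsule and fibroblast markers and 5 of the 9 chromaffin markers. The same held for 3 of 6 endothelial, 3 of 4 lymphocyte, 1 of 4 macrophage and 1 of 3 adipocyte markers. All 9 cortical markers lay above their own means at 11 PM as well. The part of any of these cells in the values was not tested. The differences of IGFALS and ADAM12 were 0.99 ± 0.26 and 1.34 ± 0.30 (SE, log2), with peaks at 19.3 h and 17.7 h and an adjusted p of 0.866 for each by limma. Both were lower in the older animals, with r = -0.92 (exact permutation p = 0.0139) and r = -0.93 (exact permutation p = 0.0167). Spearman's rho was -0.90 (exact permutation p = 0.0278) and -0.93 (exact permutation p = 0.0222). Adjusted over the 9 pathway genes named here, the exact permutation p of r was 0.075 for both. Without the 2 oldest animals r was -0.99 and -0.91. Both genes were named because they passed the cosine fit, and age itself followed a 24-h curve with its trough at 18.2 h. Their fitted peaks lay near that trough, so a low value in older animals came with the choice and those peaks together. Age and clock time cannot be told apart for these 2 genes.

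All 8 genes listed for the growth hormone axis, which drives IGF1 in the liver, were tested, and 2 passed the unadjusted threshold in the cosine fit, where 5.44% of all probe sets did. After adjustment 0 passed. STAT5A, a transcription factor downstream of the growth hormone receptor, read 346 at 3 AM, 203 at 7 AM, 105 at 11 AM, 115 at 3 PM, 88.1 at 7 PM and 232 at 11 PM. Its difference was 1.83 ± 0.38 (SE, log2) with its peak at 3.07 h (adjusted p = 0.866, limma). SOCS1, an inhibitor of that signalling, ran from 120 at 3 AM to 274 at 7 PM, with a difference of 1.05 ± 0.33 and its peak at 16.5 h (adjusted p = 0.866, limma). The highest array of the one was the lowest of the other, and the reverse held at 7 PM.

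Of 13 imprinted and growth-control genes linked with IGF2 7 were tested and 0 passed the unadjusted threshold in either fit. CDKN1C, a cell cycle inhibitor near IGF2 on its chromosome, read 3788 at 3 AM and 1387 to 2138 at the other times. It was thus highest where 2 IGF2 probe sets were lowest, with a difference of 0.82 ± 0.46 (SE, log2) that was 0.17 without the 3 AM array and 1.38 without the 11 PM array. MEG3, a long non-coding RNA, ran from 519.6 at 11 PM to 1385 at 7 AM, the same lowest and highest arrays as IGFBP3 210095_s_at. Of 11 other proteins with an IGFBP domain 5 were tested and 0 passed, among them the matrix proteins CCN2 (124 to 313) and CCN3 (578 to 1071). Of the 3 IGF2 mRNA-binding proteins 0 were tested, since IGF2BP2 and IGF2BP3 lay below the filter and IGF2BP1 had no probe set of its own.

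Some members have neighbours in the genome that were also measured. In the RefSeq table of the macaque assembly T2T-MMU8v2.0, IGF2 lies next to INS, IGFBP2 next to IGFBP5, and IGFBP3 next to IGFBP1. The probe set of INS, the insulin gene, read 6.6 to 20.4 on the 6 arrays, below the filter. IGFBP1 read 11.2 at 11 AM to 105 at 7 PM, also below it. IGFBP2 had its fitted peak at 4.07 h, and the 5 probe sets of IGFBP5 had theirs at 2.70 h, 0.860 h, 14.8 h, 15.8 h and 19.2 h.

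The genes whose log2 profile over the 6 arrays was most like a member's were found among about 9830 probe sets that name 1 gene, by Pearson's r, as a description only. For IGF2 202410_x_at they were PDIA6 (r = 0.990), TUBB3 (0.989) and MT2A (0.988), all 3 on probe sets ending in _x_at and lowest at 3 AM. MT2A, a metallothionein, read 7030.3 at 3 AM and 19838 to 24478.5 at the other times. For IGF1 209540_at they were LGALS3 (0.990), BCL9 (0.978) and CDK2AP1 (0.978). The closest gene was MRPS30 for IGF1R, CALD1 for IGF2R, PSMB3 for IGFBP2, SMG5 for IGFBP3, DIP2C for IGFBP4, LPGAT1 for IGFBP5 and COX5B for IGFBP6, with r from 0.985 to 0.995. With 6 arrays such values are common: 111 probe sets had an r above 0.9 with IGF2 202410_x_at.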

How the data were processed

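Adrenal RNA of 6 macaques was hybridised to an Affymetrix human array, 1 array per animal, per the labels' protocols. The deposited values are linear intensities, 1 per probe set, from 0.1 to 40394; the authors had scaled them, as their nearly equal trimmed means (2% from each end) show, with software not given in the sources used here. Human probes can read a macaque transcript low, so differences were taken only within a probe set; summed marker intensities weigh bright probe sets most.

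Values were converted to log2(value + 1). All 22215 probe sets that are not among the 68 controls were ranked by mean, and the 11108 at or above the median were tested one by one with limma 3.58.1 in R 4.3.3: a cosine of 24 h (3 residual degrees of freedom) and a day against night contrast, with Benjamini-Hochberg adjustment and a threshold of 0.05. The error of each fit is what the curve, or the day and night means, left unexplained. As each clock time has 1 animal, differences between animals cannot be separated in it from lack of fit or change between hours. The number of arrays limits the precision. The fits were tested on simulated data. Age and order tests enumerated all 720 pairings and 60 orders.

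The members and lists were chosen with earlier results of these data known. Named genes are all members, pathway genes past the unadjusted threshold (or the 2 with the smallest p), and the closest profiles; others were chosen after their values were seen.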

Additional observations from a re-analysis of the deposited data

How the results depend on the processing

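Probe sets past adjustment in the cosine fit numbered 0 under every alternative but the stricter level filter, which gave 1, PER2; in the day and night contrast they numbered 0 throughout. Under the looser rule the 604 probe sets called numbered 398 with 1 probe set per gene, 347 above the stricter filter and 1141 without a filter, settings that change the number tested, and ran from 521 to 799 without single arrays. Member probe sets past the unadjusted threshold in the cosine fit, 1 at first, numbered 0 with no filter and with 1 probe set per gene, 2 without the 3 AM and 3 PM arrays, and 0 to 2 without single arrays. It was another probe set with no moderation (IGF1R 203627_at) and with age as a covariate (IGF1 209540_at). In the contrast, 0 at first, they numbered 1 with no filter (IGF1 209542_x_at), 1 without the 3 AM and 3 PM arrays, 1 with the day taken as 11 AM to 7 PM, and 0 to 2 without single arrays. With age as a covariate the peak moved by over 6 h for IGF1 209540_at (log2 difference 4.73, unadjusted p = 0.0117 by limma, beyond its observed range), IGF2 202410_x_at (2.81), IGF2R 201393_s_at (2.596), IGFBP3 212143_s_at (4.29) and IGFBP6 (1.44) among the members. Among the named pathway genes it did so for SOCS1 (1.13) and CDKN1C (2.99). Age itself followed a 24-h curve with an R2 of 0.947, so this fit can hardly part age from clock time. For IGF2 202410_x_at the SE was 1.36 with age and 0.42 without it. These sizes and peaks are therefore not read as rhythms. No paired analysis was possible because no clock time holds a second animal. How far signals lay above background is unknown.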

Other observations

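Further IGF-related genes are given here as values chosen after they were seen. IGFBP7, a low-affinity relative of the IGFBPs, read 4307 at 3 AM, 8899.9 at 7 AM, 4893 at 11 AM, 6685 at 3 PM, 7642.5 at 7 PM and 4722 at 11 PM on 201162_at, so that 7 AM was highest, as for IGF2 210881_s_at and TH. On its second tested probe set, 201163_s_at, the highest array was 3 AM, at 1216. IRS2, an adaptor of the insulin and IGF1 receptors, was lowest at 7 PM on 209185_s_at, at 1715, and highest at 3 PM, at 4480.4, with a day minus night difference of 0.51 ± 0.29 (SE, log2; adjusted p = 0.919, limma). DLK1, an imprinted gene of the adrenal, ran from 4317 at 11 PM to 6963 at 7 AM (cosine fit, adjusted p = 0.888, limma).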
